A study of Drosophila melanogaster with 26 samples.

Results

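The epidermal growth factor (EGF) receptor pathway was followed through 7 of its genes in early Drosophila melanogaster embryos, chosen by name out of the 14220 gene symbols measured: rho and S, which process the ligand; spi and vn, which encode ligands; Egfr, the receptor; aos, an inhibitor; and pnt, a transcriptional effector. All 7 passed the filter on low values in 6 of the 7 comparisons made, and Egfr was left out of 1. The series deleted the fifth zinc finger of Zelda, the pioneer transcription factor encoded by zld that opens chromatin at early zygotic genes. Its 26 RNA sequencing libraries were each made from 3 pooled embryos staged to nuclear cycles 13 to 14.

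On day 1 wild type was the line sfGFP-ZLD (3 libraries), and on day 2 it was the line H2B-EGFP (6 libraries). The embryos with the deletion carry the genotype mNG-ZF5 GLC, are named Zf5 in the sample titles, and gave 3 libraries on day 1 and another 6 on day 2. The remaining genotype, Zld294, gave 8 libraries, all of day 3. The wild-type line changes with the day, and Zld294 has a day of its own, so line and day cannot be told apart in the wild type, nor genotype and day for Zld294. The labels spell out neither GLC nor the Zld294 allele, and do not say whether replicates came from separate collections, so p-values measure the spread between these libraries.

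EGF receptor signalling in the fly starts with a membrane-bound ligand precursor, Spitz, which Star carries out of the endoplasmic reticulum and Rhomboid cuts inside the membrane. The released ligand binds the receptor, which works through Ras and MAP kinase to the ETS factor Pointed, and Argos, induced by the signal, binds the ligand and limits its range. In the blastoderm embryo the transcription of rho along the sides of the embryo is an early zygotic step that places this signal in the future ventral nervous system, under the patterning factors Dorsal, Twist and Snail.

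On the BDGP6.54 annotation rho lies on 3L:1463811-1468944, plus strand, and S on 2L:1049674-1077815, minus strand. The ligand genes are at 2L:19567900-19577315 for spi and 3L:5813338-5845664 for vn, both on the minus strand. Egfr lies on 2R:21522420-21559977, plus strand, aos on 3L:16470386-16483650, minus strand, and pnt on 3R:23290231-23346167, minus strand. Genes on the other strand overlap rho, Egfr and aos, genes on the same strand lie within spi and pnt, and the sources used here do not state whether strand was used in counting. The values of those 5 genes can therefore include reads of a neighbour.

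Levels are CPM, reads of a gene scaled so that each library totals 1000000, with no division by transcript length, so each gene is compared between libraries and never with another gene. Depth read from the value of 1 read was 13084488 to 29334789 reads per library, with a median of 19879366. A single read was worth 0.0341 to 0.0764 CPM. The zld transcript was at 900 to 1344 CPM in wild type and 148 to 953 CPM in Zf5, and at 0.09 to 2.39 CPM in replicates 1 to 6 of Zld294 but 43.2 and 20.2 CPM in replicates 7 and 8. Whether those 2 libraries hold some RNA of another genotype was not tested. No library had any of 11 blastoderm markers at 0.

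Libraries also differed in how much maternal RNA they held. The mean log2(CPM + 1) of 12 maternally loaded transcripts that are degraded around this time, the maternal score, was 6.03 to 7.94 in wild type, 4.02 to 8.25 in Zf5 and 7.45 to 8.19 in Zld294. The genotype may itself alter this score, which was not tested. Fits below with the score as a covariate therefore do not separate stage from genotype. Replicates 4 and 6 of Zf5 day 2 had scores of 5.18 and 4.02, and their summed level of 10 markers of later or other tissues was 9.91 and 13.5 CPM. This sum was 0.22 to 3.03 CPM in the other Zf5 and wild-type libraries, and up to 28.3 CPM in Zld294, where 27.6 CPM of replicate 2 was the eggshell gene Cp15. The Zf5 values that moved most without replicates 4 and 6 are given both ways beside each gene.

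A gene passed the test at an adjusted p under 0.05, from limma on log2(CPM + 1) with Benjamini-Hochberg adjustment over all genes tested. In Zf5 against wild type over both days 1 of the 7 genes passed, spi, which was higher, where 5.20% of 8151 genes passed. In Zld294 against wild type 1 of the 7 passed, Egfr, which was lower, where 15.0% of 6925 genes did. In Zld294 against Zf5 1 of the 6 genes tested passed, again spi, now lower, where 6.57% of 7050 genes did. These 3 comparisons share libraries. In pooled whole embryos fewer cells of a type and less RNA per cell cannot be told apart. The median log2 fold change of the members was 0.45, 0.26 and -0.38 in these comparisons, beside 0.01, 0.13 and 0.14 over all genes tested.

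**Figure D1:**
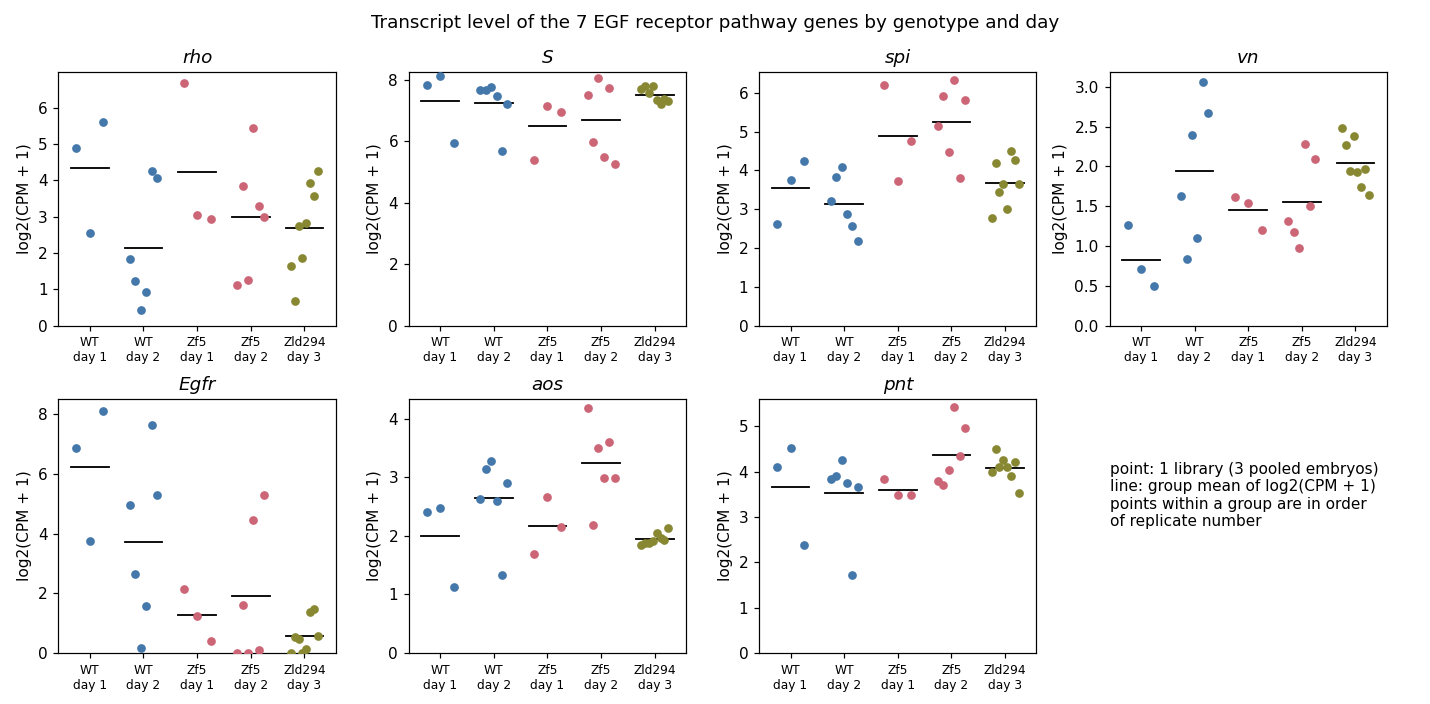
Level of each of the 7 genes as log2(CPM + 1) on the vertical axis, with a panel per gene, a point per library and a line at the group mean, for wild type and Zf5 of days 1 and 2 and Zld294 of day 3. The Zf5 points of spi lie mostly above the wild-type points, and the Egfr points of Zf5 day 1 and Zld294 lie near the bottom of the axis.

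The ligand gene spi, whose product is the main EGF receptor ligand of the embryo, was the only member to pass in Zf5 against wild type over both days. In wild type it was at 5.20, 12.6 and 17.9 CPM on day 1, and at 8.29, 13.4, 16.2, 6.34, 4.95 and 3.53 CPM on day 2. In Zf5 it was at 72.6, 12.2 and 25.99 CPM on day 1, and at 34.1, 59.1, 21.2, 79.5, 13.05 and 55.6 CPM on day 2. Of the 9 Zf5 libraries 7 were above the highest wild-type library, and all 9 were above the wild-type median of 8.29 CPM. The groups overlap through replicate 2 of day 1 and replicate 5 of day 2.

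The mean of spi was 41.5 ± 25.7 CPM in Zf5 and 9.81 ± 5.29 CPM in wild type (SD, n = 9 each). Its log2 fold change was 1.86 (SE 0.41, limma adjusted p = 0.0118), so spi rose in Zf5. On day 1 alone it was 1.35 (SE 0.73, adjusted p = 0.356), and on day 2 alone 2.12 (SE 0.48, adjusted p = 0.0397). The day effects did not differ detectably, with a difference of 0.77 (SE 0.88, adjusted p = 0.987). Without replicates 4 and 6 of Zf5 day 2 the change over both days was 1.57 (SE 0.42, adjusted p = 0.0445), while that of day 2 was 1.70 (SE 0.49, adjusted p = 0.169). The call over both days held in each of the 18 fits that left out 1 library, with changes of 1.70 to 2.06. The day 2 call was lost in 9 of 12 such fits, without replicate 1, 2, 4, 5 or 6 of wild type or replicate 1, 2, 4 or 6 of Zf5, at changes of 1.90 to 2.40 and adjusted p up to 0.107. With the maternal score as a covariate the change over both days was 1.52 (SE 0.38, adjusted p = 0.0160).

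In Zld294 spi overlapped the wild-type range, with 2 of 8 libraries above it, at 5.89, 17.3, 9.95, 11.6, 7.07, 21.6, 18.2 and 11.6 CPM. Its mean was 12.9 ± 5.59 CPM (SD, n = 8), 0.42 above wild type on the log2 scale (SE 0.32, adjusted p = 0.408). Against Zf5 the fold change was -1.44 (SE 0.39, adjusted p = 0.0338), and spi was lower in all 8 Zld294 libraries than the Zf5 median of 34.1 CPM. That call was lost in 9 of 17 fits that left out 1 library, with adjusted p up to 0.0776 and changes of -1.62 to -1.29. The libraries were replicate 2, 4 or 6 of Zf5 day 2, replicate 1 of Zf5 day 1 and replicate 1, 3, 4, 5 or 8 of Zld294. It was also lost with the maternal score as a covariate, at -0.84 (SE 0.37, adjusted p = 0.116), and without replicates 4 and 6 of Zf5 day 2, at -1.17 (SE 0.39, adjusted p = 0.0998), as well as without replicates 7 and 8 of Zld294, at -1.53 (SE 0.44, adjusted p = 0.0722).

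The receptor gene Egfr, whose product binds the ligands, spanned a wide range in wild type. Its level was at most 3.43 CPM in every mutant library other than replicates 4 and 6 of Zf5 day 2. In wild type it was at 117, 12.5 and 275 CPM on day 1, and at 30.5, 5.23, 0.12, 1.96, 198 and 38.7 CPM on day 2. In Zf5 it was at 3.43, 1.38 and 0.32 CPM on day 1 and at 0.00, 2.08, 0.00, 21.0, 0.07 and 38.7 CPM on day 2. In Zld294 it was at 0.00, 0.46, 0.39, 0.00, 0.10, 1.58, 1.76 and 0.50 CPM. All 8 Zld294 libraries were below the wild-type median of 30.5 CPM, and 3 were below the lowest wild-type library. Zld294 overlaps wild type through replicate 3 of wild type day 2, at 0.12 CPM, and all 8 of its libraries were below the next lowest wild-type library, at 1.96 CPM. On day 1 the 3 Zf5 libraries were all below the 3 of wild type, whereas on day 2 the groups overlapped.

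The mean of Egfr was 0.599 ± 0.691 CPM in Zld294 (SD, n = 8) and 75.4 ± 99.8 CPM in wild type (n = 9), and the log2 fold change was -3.99 (SE 0.93, limma adjusted p = 0.00660), so Egfr fell in Zld294. The call held in each of 17 fits that left out 1 library, with changes of -4.54 to -3.54, and without replicates 7 and 8 of Zld294 together, at -4.14 (SE 1.06, adjusted p = 0.0203). In Zf5 the mean was 7.44 ± 13.5 CPM (n = 9), with a fold change of -2.86 (SE 1.05, adjusted p = 0.109), which did not pass. On day 1 it was -4.98 (SE 1.13, adjusted p = 0.0929), which passed without replicate 2 of wild type, at -6.23 (adjusted p = 0.0242), or without replicate 3, at -4.05 (adjusted p = 0.0447). Of all genes 1.27% and 16.7% passed in these fits, beside 1.69% with every library. On day 2 the fold change of Egfr was -1.80 (SE 1.34, adjusted p = 0.681), and -3.29 without replicates 4 and 6 of Zf5 (SE 1.27, adjusted p = 0.380). The difference between days was 3.18 (SE 2.17, adjusted p = 0.987), and 1.70 without those 2 libraries (SE 1.97, adjusted p = 0.656). Egfr was not tested in Zld294 against Zf5, since 7 libraries reached 1 CPM where 8 were required. With no such filter the fold change was -1.13 (SE 0.69, adjusted p = 0.296).

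The Egfr level moved with the maternal score within Zf5. Over the 6 Zf5 libraries of day 2 Pearson's r was -0.97 and Spearman's rho -0.99, with the same exact permutation p of 0.00556 (two-sided) for both. Adjusted over 21 relations these were 0.0437 and 0.0760. Without the 2 farthest libraries, replicates 4 and 6, r was -0.99. Egfr in the libraries left was at 0.00, 2.08, 0.00 and 0.07 CPM, so that r rests on replicate 2 alone. In wild type of day 2 r was -0.70 (n = 6, exact permutation p = 0.103) and in Zld294 it was -0.25 (n = 8, exact permutation p = 0.558). With the maternal score as a covariate the log2 fold change of Egfr in Zf5 was -4.16 over both days (SE 0.78, limma adjusted p = 0.00235), -5.98 on day 1 (adjusted p = 0.0152) and -3.21 on day 2 (adjusted p = 0.0742). In Zld294 it was -2.68 (SE 0.71, adjusted p = 0.00679). More genes passed with this covariate, 978 of 8151 in Zf5 over both days, 6.96% on day 1, 4.84% on day 2, 37.5% in Zld294 against wild type and 20.1% against Zf5. Without replicates 4 and 6 of Zf5 day 2 the change in Zf5 was -3.94 (SE 0.95, adjusted p = 0.0257).

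Libraries of like maternal score, picked after their values were seen, can be set side by side. Replicate 3 of wild type day 1, with a score of 6.03, had Egfr at 275 CPM, and replicate 5 of wild type day 2, at 6.57, had 198 CPM. These were the highest Egfr levels of wild type. Replicate 2 of Zf5 day 2, at 6.07, had 2.08 CPM, and replicate 3 of Zf5 day 1, at 6.46, had 0.32 CPM. The mesoderm gene twi, also zygotic, was at 148 and 127 CPM in these wild-type libraries and at 132 and 54.9 CPM in these Zf5 libraries. For rho the levels were 48.1 and 18.2 CPM in these wild-type libraries and 13.4 and 6.65 CPM in these Zf5 libraries. At higher scores the contrast in Egfr varied. Wild type at 7.32, 7.32 and 7.42 had 117, 38.7 and 1.96 CPM, and Zf5 at 7.05 had 1.38 CPM. At 7.64 and 7.77 wild type had 12.5 and 5.23 CPM, and Zf5 at 7.77 had 0.07 CPM. At 7.94 wild type had 30.5 and 0.12 CPM, while Zf5 at 8.12 and 8.25 had 0.00 CPM. The part of stage in the Egfr levels of these libraries was not tested.

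**Figure D2:**
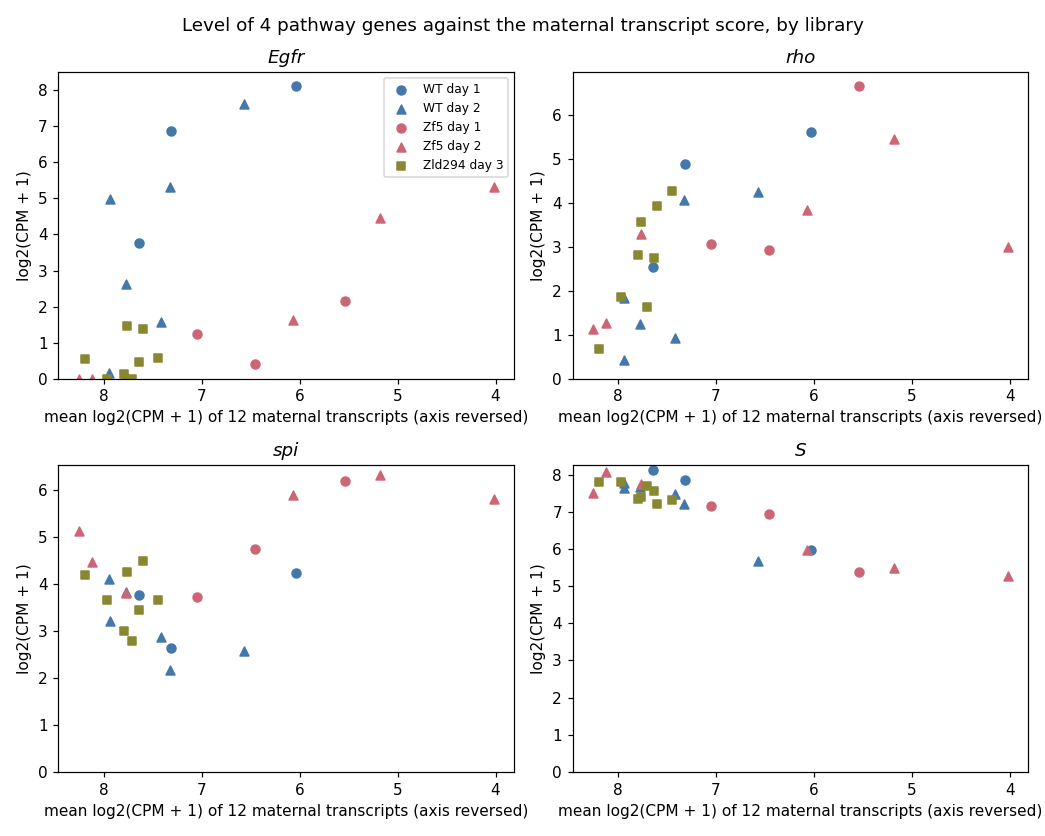
Level of Egfr, rho, spi and S as log2(CPM + 1) against the maternal score on a reversed axis, with a point per library, coloured by genotype and shaped by day. At scores of 6.03 to 6.57, a span picked after the values were seen, the wild-type libraries have Egfr at 198 and 275 CPM. These are the highest levels of wild type. The Zf5 libraries of that span have Egfr at 0.32 and 2.08 CPM. S is lower at low scores in wild type and Zf5.

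The processing gene rho, which encodes the intramembrane protease that releases the ligand, varied widely within groups, and none of its differences passed. In wild type it was at 28.4, 4.85 and 48.1 CPM on day 1, and from 0.35 to 18.2 CPM with a median of 1.96 on day 2. In Zf5 it was at 101, 7.34 and 6.65 CPM on day 1, and from 1.18 to 42.8 CPM with a median of 7.88 on day 2. In Zld294 it ran from 0.60 to 18.2 CPM with a median of 5.89. All groups overlapped. The log2 fold change was 0.54 in Zf5 (SE 0.73, limma adjusted p = 0.684), or 0.11 without replicates 4 and 6 of day 2 (adjusted p = 0.963), and -0.18 in Zld294 (SE 0.73, adjusted p = 0.898). Its level fell with a higher maternal score in Zld294, where r was -0.84 and rho -0.74 (n = 8, exact permutation p = 0.00702 and 0.0458, adjusted 0.0437 and 0.138), but r without the 2 farthest libraries was -0.52.

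S encodes Star, which escorts the Spitz precursor to the protease, and its transcript was abundant in every library. In wild type it was at 230, 277 and 61.4 CPM on day 1 and from 50.1 to 217 CPM with a median of 189 on day 2. In Zf5 it was at 41.0, 142 and 123 CPM on day 1 and from 37.8 to 267 CPM with a median of 122 on day 2, and in Zld294 from 148 to 225 CPM with a median of 178. The groups overlapped, and the fold change was -0.64 in Zf5 (SE 0.45, limma adjusted p = 0.386), or -0.26 without replicates 4 and 6 of day 2 (adjusted p = 0.816), and 0.26 in Zld294 (SE 0.29, adjusted p = 0.589). Against Zf5 it was 0.90 in Zld294 (SE 0.37, adjusted p = 0.132), and it passed without replicate 3 of Zf5 day 2, at 1.08 (adjusted p = 0.0434). In that fit 17.3% of all genes passed, beside 6.57% with every library.

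The level of S rose and fell with the maternal score. Pearson's r was 0.95 in wild type of day 2 and 0.96 in Zf5 of day 2 (n = 6 each, exact permutation p = 0.00833 and 0.0111, adjusted 0.0437 and 0.0467), and 0.74 in Zld294 (n = 8, exact permutation p = 0.0313, adjusted 0.0939). Spearman's rho was 0.94, 0.83 and 0.76 (adjusted exact permutation p = 0.0875, 0.153 and 0.129), and r without the 2 farthest libraries was 0.89, 0.94 and 0.58. With the maternal score as a covariate the Zf5 change of S was 0.03 (adjusted p = 0.930), turned in sign from -0.64. The 21 relations were those of the 7 genes in these 3 groups, of which 6 passed by Pearson's r and 0 by Spearman's rho after adjustment.

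The second ligand gene, vn, which encodes the neuregulin-like Vein, was low throughout. In wild type it was at 1.40, 0.64 and 0.42 CPM on day 1 and from 0.79 to 7.33 CPM with a median of 3.18 on day 2. In Zf5 it was at 2.05, 1.92 and 1.30 CPM on day 1 and from 0.97 to 3.87 CPM with a median of 1.65 on day 2, and in Zld294 from 2.13 to 4.59 CPM with a median of 2.89. All 8 Zld294 libraries were above the Zf5 median of 1.82 CPM, but 2 were above the highest Zf5 library. The fold changes were -0.05 in Zf5 (SE 0.32, limma adjusted p = 0.938) and 0.47 in Zld294 against wild type (SE 0.33, adjusted p = 0.364), while Zld294 minus Zf5 was 0.53 (SE 0.21, adjusted p = 0.118). The last of these was 0.77 with the maternal score as a covariate (SE 0.21, adjusted p = 0.0190) and 0.72 without replicates 4 and 6 of Zf5 day 2 (SE 0.17, adjusted p = 0.0222).

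The feedback inhibitor gene aos held a narrow range in Zld294. Its levels there were 2.58, 2.67, 2.68, 2.76, 3.15, 2.90, 2.82 and 3.38 CPM, all below the wild-type median of 5.06 CPM and the Zf5 median of 6.90 CPM. Wild type was at 4.29, 4.58 and 1.19 CPM on day 1 and from 1.52 to 8.73 CPM with a median of 5.86 on day 2. Zf5 was at 2.21, 5.37 and 3.46 CPM on day 1 and from 3.54 to 17.2 CPM with a median of 8.64 on day 2. The ranges overlapped in each comparison. A smaller SD in Zld294 was not particular to aos. For S and pnt it was 30.2 and 3.24 CPM there, beside 75.7 and 6.23 CPM in wild type and 84.4 and 10.7 CPM in Zf5. The SD of spi in Zld294, 5.59 CPM, was above the 5.29 CPM of wild type.

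The log2 fold change of aos was 0.45 in Zf5 (SE 0.32, limma adjusted p = 0.395), -0.49 in Zld294 against wild type (SE 0.26, adjusted p = 0.238), and for Zld294 minus Zf5 -0.94 (SE 0.29, adjusted p = 0.0591). With the maternal score as a covariate both Zld294 differences passed, at -0.89 against wild type (SE 0.17, adjusted p = 0.000669) and at -1.32 for Zld294 minus Zf5 (SE 0.29, adjusted p = 0.00719). Without the score the call turned on the choice of fit and on single libraries. Against Zf5 aos passed with median-ratio scaling, in a single fit of all 26 libraries and with Zf5 of day 2 alone. Of all genes 7.29%, 11.2% and 5.02% passed in these fits. The gene also passed against wild type of day 2 alone, where 23.8% of all genes did. The difference from wild type was -0.65 in the fit lacking replicate 3 of wild type day 1 (adjusted p = 0.0486). In that fit 17.4% of all genes passed, beside 15.0% with every library. Against Zf5, leaving out replicate 1 of Zf5 day 2, or replicate 1 or 3 of Zf5 day 1, gave -0.77, -1.09 and -1.03 (adjusted p = 0.0335, 0.0258 and 0.0418). Of all genes 29.8%, 4.08% and 6.68% passed in these fits, beside 6.57% with every library.

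The effector gene pnt, whose ETS factor acts downstream of MAP kinase, overlapped between all groups. In wild type it was at 16.3, 21.9 and 4.20 CPM on day 1 and from 2.30 to 18.2 CPM with a median of 12.8 on day 2. In Zf5 it was at 13.2, 10.2 and 10.1 CPM on day 1 and from 11.95 to 41.6 CPM with a median of 17.4 on day 2, and in Zld294 from 10.6 to 21.7 CPM with a median of 16.2. The highest Zf5 levels, 41.6 and 29.9 CPM, were those of replicates 4 and 6 of day 2. The fold changes were 0.55 in Zf5 (SE 0.38, limma adjusted p = 0.383), or 0.25 without those 2 libraries (adjusted p = 0.790), 0.51 in Zld294 against wild type (SE 0.32, adjusted p = 0.322), and Zld294 minus Zf5 was -0.04 (SE 0.26, adjusted p = 0.933). The level rose with the maternal score in wild type of day 2 (r = 0.93, n = 6, exact permutation p = 0.0139, adjusted 0.0486) and in Zld294 (r = 0.92, n = 8, exact permutation p = 0.00270, adjusted 0.0437). Spearman's rho was 0.94 and 0.88 (adjusted exact permutation p = 0.0875 and 0.0760), and r without the 2 farthest libraries was 0.84 and 0.77.

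**Figure D3:**
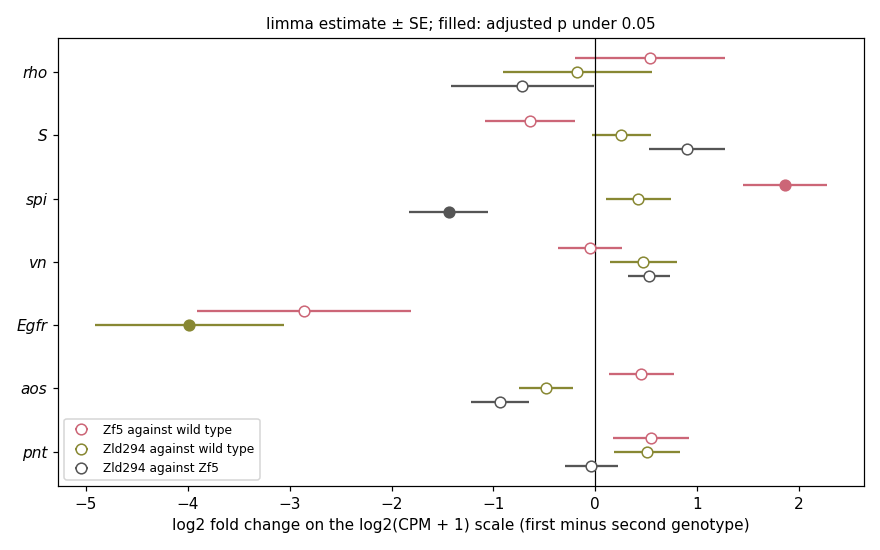
Log2 fold change of each gene on the log2(CPM + 1) scale (horizontal axis) in Zf5 against wild type, Zld294 against wild type and Zld294 against Zf5, with bars of 1 SE and filled points where the adjusted p was under 0.05. The filled points are spi at 1.86 and -1.44 and Egfr at -3.99.

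By day, 0 of the 7 genes passed in Zf5 against wild type on day 1, where 1.69% of 7172 genes did (limma, 1 of the 7 at an unadjusted p under 0.05), and 1 on day 2, where 1.90% of 6990 did. For day 2 minus day 1 of the Zf5 effect 0 passed, where 0.478% of 8151 genes did, and 0 at an unadjusted p under 0.05. Between the wild-type groups 0 passed, where 8.20% of 7160 genes did (limma, 0 at an unadjusted p under 0.05). The largest wild-type differences, day 2 minus day 1, were -2.53 for Egfr (SE 1.64, adjusted p = 0.419), -2.22 for rho (SE 1.03, adjusted p = 0.243) and 1.12 for vn (SE 0.51, adjusted p = 0.234). In order of group means, Egfr ran from wild type of day 1 (135 ± 132 CPM, SD) over wild type of day 2 (45.7 ± 76.1), Zf5 of day 2 (10.3 ± 16.1) and Zf5 of day 1 (1.71 ± 1.58) to Zld294 (0.599 ± 0.691), and the ranges of neighbours in this order overlapped throughout. For spi the order was Zf5 of day 2 (43.8 ± 25.3 CPM), Zf5 of day 1 (36.9 ± 31.7), Zld294 (12.9 ± 5.59), wild type of day 1 (11.9 ± 6.36) and wild type of day 2 (8.77 ± 4.98), and neighbours again overlapped.

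Beyond the 7, 33 other genes of the pathway were examined: the other ligands and processing genes, the Ras to MAP kinase cascade, inhibitors, nuclear factors and targets. In Zf5 against wild type 31 were tested and 1 was higher, edl, with 0 lower, where 5.20% of all genes tested passed, and their median log2 fold change was -0.21, beside 0.01 over all genes. The edl gene encodes an Ets-related protein that binds Pointed and Yan and is itself zygotic. It was at 44.4 ± 62.2 CPM in Zf5 and 2.08 ± 2.81 CPM in wild type (SD, n = 9 each), with a fold change of 2.94 (SE 0.83, limma adjusted p = 0.0464), and 7 of 9 Zf5 libraries were above every wild-type library. The call was lost in 12 of 18 fits that left out 1 library, and kept without replicate 5 of wild type day 2, replicate 3 of wild type day 1, replicate 2 of Zf5 day 1 or replicate 1, 3 or 5 of Zf5 day 2, with changes of 2.56 to 3.38 and adjusted p up to 0.107. Of all genes 4.43 to 10.7% passed in the fits that kept it. The call was also lost without replicates 4 and 6 of Zf5 day 2, at 2.19 (adjusted p = 0.128), and kept with the maternal score as a covariate, at 1.72 (adjusted p = 0.0179). By day 0 of 30 and 0 of 28 passed (limma, 5 and 4 at an unadjusted p under 0.05).

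In Zld294 against wild type 28 of the 33 were tested and 1 was higher, RasGAP1, a Ras GTPase activator, with 0 lower and a median of 0.06, where 15.0% of all genes passed with a median of 0.13. It was at 359 CPM against 296 CPM, a fold change of 0.29 (SE 0.10, limma adjusted p = 0.0479), and the call was lost in 14 of 17 fits that left out 1 library, with adjusted p up to 0.0975. It was kept without replicate 1 or 2 of wild type day 1 or replicate 2 of Zld294. Median-ratio scaling also ended it, at 0.20 (adjusted p = 0.276), as it did that of edl in Zf5, at 2.91 (adjusted p = 0.0543). With the maternal score as a covariate 6 of these genes were higher and 6 lower, where 37.5% of all genes passed. In Zld294 against Zf5, where 6.57% of all genes passed, 0 of 28 did (limma, 9 at an unadjusted p under 0.05). Between the wild-type groups sl, which encodes a phospholipase C gamma, was lower on day 2, at -0.46 (SE 0.10, adjusted p = 0.0249), alone among 29 tested, where 8.20% of all genes passed. That call was lost in 7 of 9 fits that left out 1 library, with adjusted p up to 0.130, and kept without replicate 5 of day 2 or replicate 3 of day 1. Of all genes 17.2% and 6.90% passed in the fits that kept it.

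**Figure D4:**
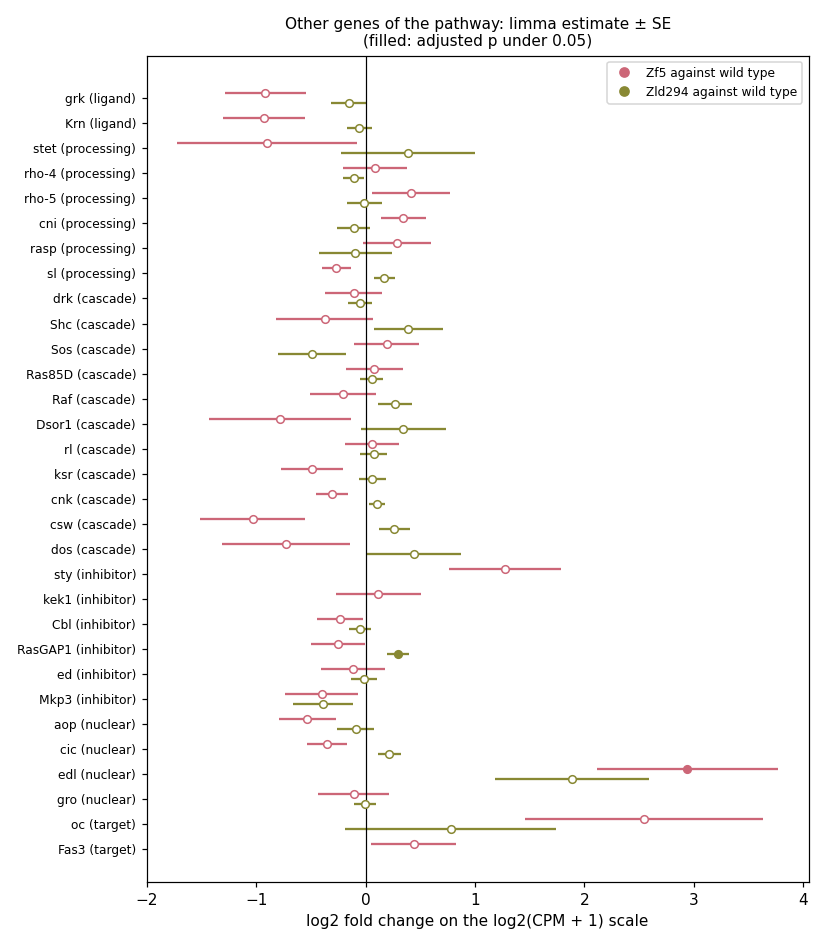
Log2 fold change on the log2(CPM + 1) scale (horizontal axis) of the other pathway genes, with their role in brackets, in Zf5 and in Zld294 against wild type, with bars of 1 SE and filled points where the adjusted p was under 0.05. The filled points are edl at 2.94 in Zf5 and RasGAP1 at 0.29 in Zld294.

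Among genes of the neuroectoderm, the tissue in which rho is first transcribed, 7 of 8 tested had a positive log2 fold change in Zf5 and 1 a negative. Of 9 listed, 8 were tested, and 7 of these were at an unadjusted p under 0.05 (limma), as were 2077 of 8151 genes. The median log2 fold change of the 8 was 2.17, beside 0.01 over all genes. At the adjusted threshold 2 were higher and 1 lower, where 5.20% of all genes passed. The higher ones were pyr, an FGF8-like ligand gene, at 16.9 CPM against 0.538 CPM (fold change 2.79, SE 0.70, limma adjusted p = 0.0256), and Dr, a homeobox gene of the dorsal column, at 4.37 CPM against 0.160 CPM (1.74, SE 0.39, adjusted p = 0.0130). The lower one was l(1)sc, a proneural gene, at 2.22 CPM against 25.6 CPM (-2.84, SE 0.55, adjusted p = 0.00526). The filter asks for 1 CPM in 3 libraries, and Dr, pyr and ths met it only through Zf5. In wild type Dr was at most 0.892 CPM, pyr 2.93 CPM and ths 1.88 CPM. The count of positive changes, the median and the calls of pyr and Dr are therefore partly set by the filter. Dr and l(1)sc kept their calls in all 18 fits that left out 1 library, and pyr in 13, losing it without replicate 2 or 4 of Zf5 day 2, replicate 1 of Zf5 day 1 or replicate 1 or 2 of wild type day 1 (adjusted p up to 0.0599). Without replicates 4 and 6 of Zf5 day 2 the change of pyr was 2.03 (adjusted p = 0.0695), that of Dr 1.52 (adjusted p = 0.0487) and that of l(1)sc -3.14 (adjusted p = 0.00478). On day 1 l(1)sc alone passed among 8 tested, where 1.69% of all genes did, at -2.75 (adjusted p = 0.0246), a call that held in 1 of 6 fits leaving out 1 library, that without replicate 3 of wild type. In that fit 16.7% of all genes passed. On day 2, where 1.90% of all genes passed, 0 of 5 did (limma, 1 at an unadjusted p under 0.05). In Zld294 against wild type l(1)sc was the single gene of 5 tested to pass, where 15.0% of all genes did, at 0.858 CPM and -3.37 (SE 0.48, adjusted p = 0.000101), with all 8 libraries below the lowest wild-type library. Against Zf5, where 6.57% of all genes passed, 0 of 8 did (limma, 2 at an unadjusted p under 0.05).

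The genes most like each member over the 26 libraries were found by Pearson's r of log2(CPM + 1), as a description, with r of the deviations from group means in brackets. These points share libraries and their stage. For rho they were sna at 0.92 (0.92), twi at 0.92 (0.92) and ems at 0.92 (0.94). For Egfr they were Dtg at 0.97 (0.95), BNIP3 at 0.96 (0.96) and Inx3 at 0.96 (0.97). For spi they were lbk at 0.95 (0.91), Vps15 at 0.94 (0.91) and PNUTS at 0.92 (0.92). For S they were SCaMC at 0.98 (0.99), brun at 0.98 (0.98) and BtbVII at 0.98 (0.97). For pnt they were CG13895 at 0.87 (0.85), CG11360 at 0.84 (0.82) and crol at 0.83 (0.85), and for aos rux at 0.83 (0.86), CG32795 at 0.82 (0.92) and O-fut2 at 0.80 (0.76). The mean level of vn was under 5 CPM, so none was sought for it.

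Among the members themselves the deviations from group means of rho and Egfr were opposed to those of S and aos. Over 26 libraries r was 0.80 between S and aos and 0.72 between rho and Egfr, but -0.80 between S and Egfr, -0.74 between rho and S and -0.64 between Egfr and aos. The deviations of spi followed none of these closely, with r from -0.49 with S to 0.23 with pnt. Those of pnt had r of 0.52 with aos and 0.29 with S, and those of vn 0.51 with Egfr and 0.35 with rho. Deviations also follow the stage of each pool, and the part of stage in these correlations was not tested.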

How the data were processed

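Values per gene symbol for 26 libraries were used as the authors deposited them, from embryos pooled by 3. No header or label names their unit, and the values decide it: every column adds up to 1000000, and the lowest value, near 1 read, was about 0.047 whatever the transcript length (medians 0.0484, 0.0475, 0.0467 and 0.0461 from the shortest to the longest of 4 length classes), so the deposited values are CPM. The plan had assumed TPM, and the same test was kept. The submitters' processing notes name kallisto, edgeR, limma and the build BDGP6, with no roles. Among single-transcript genes of low level 82.8 to 94.3% of values lay within 0.1 of a whole number of reads, and 66.9 to 74.1% among all low genes, so counts were not recovered and no count model was run. Counting intervals are not given, and 3 reads correspond to 0.102 to 0.229 CPM.

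Each comparison was fitted on log2(CPM + 1) by limma 3.58.1 under R 4.3.3, with a mean-variance trend and with day as a covariate for Zf5 over both days. Zld294 was compared with both days of each other genotype with no day term. Genes entered with at least 1 CPM in 3 libraries, or in 8 for comparisons of Zld294. Fold changes on this scale understate those of low genes. P-values were adjusted over all genes tested by Benjamini and Hochberg's method. Exact permutation tests were made in scipy 1.17.1, adjusted over 21 relations. The pipeline was tested on simulated data. The members, the gene lists and the tests were chosen with earlier results of these data known. Named genes are the 7 members, up to 4 genes of each other list that passed, by size of change, and for each member with a mean of at least 5 CPM the 3 genes of highest r. One written symbol, Gap1, did not match, which left 33 pathway genes. Alternatives were another pseudocount (0.1), filters, scaling and variance models, a single fit of all 26 libraries, the maternal score as a covariate, a replicate block, single days and leaving out each library. Leaving out replicates 4 and 6 of Zf5 day 2 together, or 7 and 8 of Zld294, was added after seeing the data.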

Additional observations from a re-analysis of the deposited data

Results flagged for a closer look

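In 21 sets of libraries, the 7 genes in each group of 6 or 8, 2 held a library far from the others by Dixon's test on CPM. Chance flags about 1 in 20 where values are normally distributed, which was not tested for these. Dixon's test was not made on the log2(CPM + 1) scale used elsewhere, so the flags hold for the CPM scale only. Replicate 5 of wild type day 2 had Egfr at 198 CPM, with the next at 38.7 CPM, a gap of 0.804 of the group's range. That library had the lowest maternal score of its group, 6.57. Without it the log2 fold change of Egfr in Zld294 against wild type remained past the threshold, as in every such fit. Replicate 4 of Zf5 day 2 had rho at 42.8 CPM, with the next at 13.4 CPM, a gap of 0.706 of the range. Its maternal score was 5.18, the second lowest of its group, and its sum of other-tissue markers was 9.91 CPM. The part of these measures in either value was not tested.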

How the results depend on the processing

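The number of the 7 genes past the threshold changed as follows. For Zf5 against wild type it was 1, and 2 (spi and Egfr) in a single fit of all 26 libraries, with the maternal score or without replicates 4 and 6 of Zf5 day 2. Over all genes 1179 of 8151, 978 of 8151 and 345 of 7620 passed in these fits, beside 424 of 8151 in the main fit. On day 1 the number of the 7 genes was 0, and 1 (Egfr) with the maternal score. On day 2 it was 1, and 0 with no filter, with 1 CPM required in every library, with median-ratio scaling and without replicates 4 and 6. For Zld294 against wild type it was 1, and 0 with 1 CPM required in every library, where Egfr was not tested, while it was 2 with the maternal score and with wild type of day 1 (vn 1.22, adjusted p = 0.00270) or of day 2 (aos -0.70, adjusted p = 0.0494) alone. For Zld294 against Zf5 it was 1, and 0 with no filter or without replicates 7 and 8 of Zld294 (spi -1.53, adjusted p = 0.0722), 2 with median-ratio scaling, a single fit of all 26 libraries, the maternal score and Zf5 of day 2 alone, and 4 of 7 with Zf5 of day 1 alone, where 58.5% of all genes passed. With the maternal score 37.5% of all genes passed against wild type and 20.1% against Zf5, and with wild type of day 1 or day 2 alone 27.0% and 23.8% did. Against Zf5 7.29% passed with median-ratio scaling, 11.2% in the single fit and 5.02% with Zf5 of day 2 alone, beside 6.57% in the main fit. Between the wild-type groups the number of the 7 genes was 0, and 2 (S and pnt) with the maternal score, where 28.6% of all genes passed. Leaving out 1 library gave 0 to 1 for Zf5 on day 1 and on day 2, 1 to 2 for Zld294 against wild type and 0 to 2 for Zld294 against Zf5. In these fits 0 to 16.7% of all genes passed for Zf5 on day 1 and 0.945 to 2.26% on day 2. For Zld294 835 to 1198 genes passed against wild type, and 3.89 to 29.8% of all genes against Zf5. The cause of these changes was not tested.

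In the fit with the replicate block, same-numbered libraries of a day form a block for Zf5 against wild type. For the Zld294 comparisons and between wild types, libraries of the same number form a block whatever their day. This fit gave 0 in Zf5 over both days (spi 1.86, limma adjusted p = 0.0529) and on day 2 (spi adjusted p = 0.123). It gave 0 in both Zld294 comparisons, where Egfr was at -4.19 against wild type (adjusted p = 0.0514) and spi at -1.57 against Zf5 (adjusted p = 0.126). With it edl and pyr in Zf5 each had an adjusted p of 0.0549, l(1)sc on day 1 one of 0.0939 and RasGAP1 in Zld294 one of 0.147. Over all genes the replicate block called 193 in Zf5 over both days where 424 passed without it, 21 against 121 on day 1, 57 against 133 on day 2, 16 against 39 for the difference between days, 532 against 1042 and 71 against 463 for Zld294, and 0 against 587 between wild types. The deviations of the 9 same-numbered pairs correlated at -0.59 to 0.71, 4 of them above 0.1. The labels do not say whether same-numbered libraries share more than a number, and these correlations do not settle it, since deviations also follow the stage of each pool.

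Directions turned for log2 fold changes that did not pass. In Zf5 against wild type vn was 0.059 with a pseudocount of 0.1 and 0.12 in the fit of all 26 libraries, and with the maternal score rho was -0.24 and S 0.032. By day with the maternal score S was 0.032 and pnt 0.34 on day 1, and S was 0.13 on day 2, or 0.088 without replicates 4 and 6. In Zld294 against wild type rho was 0.94, S -0.24 and pnt -0.015 with the maternal score, and rho 0.56 with wild type of day 2 alone. Against Zf5, with the maternal score, rho was 0.36, S -0.011 and pnt 0.23, and pnt was 0.48 with Zf5 of day 1 alone (adjusted p = 0.0483), 0.26 without replicates 4 and 6 of Zf5 and 0.028 without replicates 7 and 8 of Zld294. Between wild types with the replicate block S was 0.39, spi 0.18 and pnt 0.33. Leaving out 1 library, ranges that crossed 0 were -0.17 to 0.11 for vn in Zf5, -1.35 to 0.52, -0.27 to 0.41 and -0.72 to 0.35 for rho, aos and pnt in Zf5 on day 1, -0.30 to 0.92 for S between days, -0.48 to 0.17 for rho in Zld294, -0.12 to 0.12 for pnt in Zld294 against Zf5, and -0.74 to 0.33 for S and -0.80 to 0.27 for pnt between wild types.

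Median-ratio scaling moved the split of all calls. In Zf5 against wild type 253 genes were higher and 171 lower as deposited, and 185 and 203 after scaling. In Zld294 against wild type the numbers were 574 and 468, and 353 and 577. Between the wild types the median of all genes was 0.19 as deposited and 0.02 scaled. At this depth levels under 0.102 to 0.229 CPM, which 3 reads give, cannot be told from 0.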
